A study of Mus musculus with 3 samples.

Results

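Egr1, Egr2, Egr3, Nr4a1, Nr4a2, Nr4a3, Ier2 and Ier5 are immediate early genes, and their transcripts were measured in sorted mouse bone marrow pre-B cells. The members were chosen by symbol, matched to the Entrez identifiers of the deposited table, and all 8 were found among 26286 genes. The study holds 3 RNA-seq libraries of a single group, replicates 1, 2 and 3, and no other condition to set against it. The mice were bitransgenic for CAG-rtTA3, a doxycycline-responsive transactivator under the CAG promoter, and for TRE-GFP-shLuc.1309, which links GFP to an inducible hairpin used as a control. Doxycycline (Dox) was given for 3 days, and cells with GFP, B220 and CD25 and without IgM and Kit at the surface were collected, so all 3 libraries carry the transgenes, the drug and the hairpin. The labels give neither the age of the mice nor whether each library came from its own animal, so part of the spread between libraries may be technical.

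Immediate early genes are switched on by growth factor, antigen receptor or stress signals without new protein synthesis, through factors already bound at their promoters, and their short-lived transcripts fall again soon after. The Egr proteins are zinc finger transcription factors, the Nr4a proteins are orphan nuclear receptors, and Ier2 and Ier5 are small nuclear proteins. In lymphocytes Nr4a1 and the Egr genes are widely used as readouts of antigen receptor signalling. In pre-B cells the pre-B receptor, made of the mu heavy chain and the surrogate light chain, is such a signal.

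The libraries differed in depth, from 12021576 to 32086649 counts, with replicate 3 the deepest by 2.67-fold over replicate 2. The labels of replicate 3 also name another version of the CASAVA base-calling software, 1.8.0 against 1.8.2. Replicate 1 stood apart in Xist, the X-inactivation transcript of female cells, at 22609 counts against 94 and 70. Replicate 1 thus held cells of a female animal that did not supply the others, while replicates 2 and 3 could share an animal. Pre-B identity was checked on 10 markers, all above 1 RPKM (reads per kilobase of gene, scaled to library size) in every library, with a summed level of 4715, 4878 and 4332 RPKM in replicates 1, 2 and 3. Cd79b, a signalling chain of the pre-B receptor, stood at 1297 ± 62.2 RPKM (SD, n = 3), and Il2ra, the CD25 gene of the gate, at 89.3 ± 17.7 RPKM.

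Promoter sequence is shown for 3 of the 8 genes, whose levels below run from the highest gene (Ier5) through Nr4a1 to the lowest (Egr2). Some immediate early genes are known to be induced through the motifs marked here, which need not hold for all 3. Each sequence is the 250 bases before a RefSeq start site on GRCm38.p6, printed on the gene's own strand, and none overlaps an annotated exon of its gene. Capitals mark matches on either strand to the CArG box bound by serum response factor, to the core TGACG of the cyclic AMP response element and to the Egr sites GCGTGGGCG and GCGGGGGCG. The full cyclic AMP response element TGACGTCA, which contains the core, and the Nr4a monomer site AAAGGTCA were searched too. Sequences were found for 5 of the 8 genes, in 9 windows.
Egr2, chr10:67537619-67537868, plus strand: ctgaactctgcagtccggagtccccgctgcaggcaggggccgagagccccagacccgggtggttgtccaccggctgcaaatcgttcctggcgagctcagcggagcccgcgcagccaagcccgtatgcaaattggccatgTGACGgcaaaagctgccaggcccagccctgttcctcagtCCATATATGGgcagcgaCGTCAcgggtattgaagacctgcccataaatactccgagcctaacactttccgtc
Nr4a1, chr15:101266596-101266845, plus strand: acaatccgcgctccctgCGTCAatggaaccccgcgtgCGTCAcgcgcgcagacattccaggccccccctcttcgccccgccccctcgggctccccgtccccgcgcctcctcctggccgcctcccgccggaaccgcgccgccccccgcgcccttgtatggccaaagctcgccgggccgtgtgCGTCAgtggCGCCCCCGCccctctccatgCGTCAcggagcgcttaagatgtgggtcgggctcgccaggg
Ier5, chr1:155099637-155099886, minus strand: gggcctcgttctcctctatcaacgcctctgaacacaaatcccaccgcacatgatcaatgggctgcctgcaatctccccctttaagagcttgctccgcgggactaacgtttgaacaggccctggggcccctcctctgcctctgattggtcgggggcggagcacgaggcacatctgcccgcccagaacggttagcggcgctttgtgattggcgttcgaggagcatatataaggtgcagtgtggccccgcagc
In Egr2 the CArG box CCATATATGG began 72 bases before the start site, between 2 copies of the TGACG core. A CArG box was present in 1.47% of all 32851 RefSeq windows of this length, and in 4 of the 5 windows of Egr2, of which 3 overlap. The Nr4a1 window held 4 cores and an Egr site, and 3.06% of all windows held either of the Egr words. The core alone was in 17.8% of windows, and in those of Nr4a2 and Nr4a3 besides. The Ier5 window held none of the motifs searched. None of the 9 windows held the full response element or the Nr4a site, which were in 1.55% and 1.34% of all windows. Egr1, Egr3 and Ier2 had no window to search. A match describes the letters only.

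Levels separated the Ier genes from the others. The plot of levels by library shows 2 genes above 10 RPKM, 2 near 1 to 3 RPKM and 4 below 0.5 RPKM. Ier5, Ier2 and Egr1, 3 of the 8, were at 1 RPKM or more in all 3 libraries, against 64.0% of the 17423 genes with a count.

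**Figure D1:**
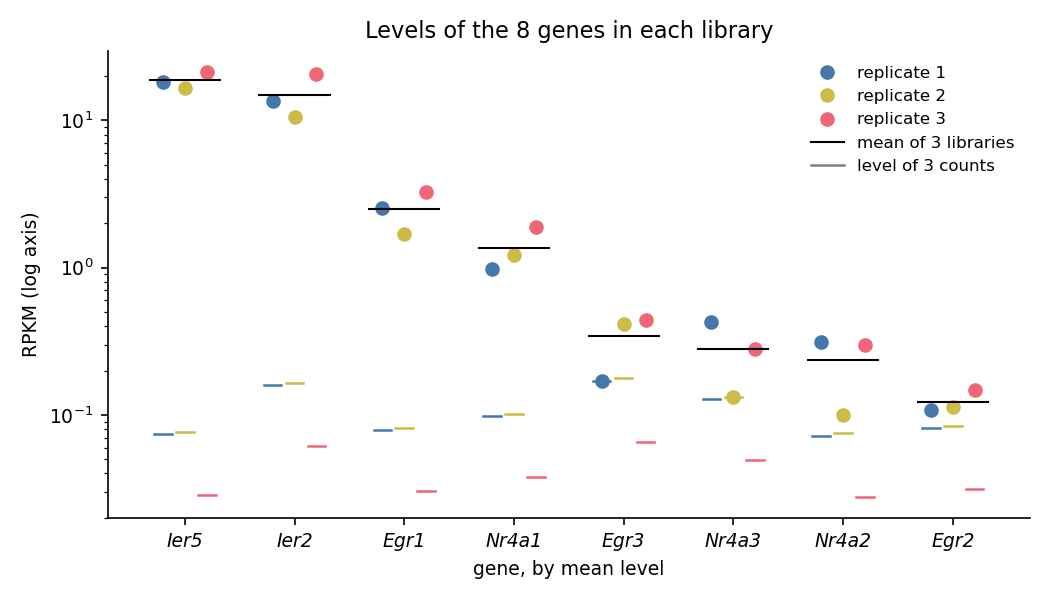
RPKM (log axis) of the 8 genes, ordered by mean level, in replicates 1, 2 and 3 (points), with the mean (black line) and the level that 3 counts would give in each library (short coloured lines). Ier5 and Ier2 lie between 10.6 and 21.3 RPKM, while points of Egr3 in replicate 1 and Nr4a3 in replicate 2 lie on the 3-count line.

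Of the Ier genes, Ier5 (Entrez 15939), a regulator of heat shock factor activity, was the highest. It had 745, 650 and 2243 counts in replicates 1, 2 and 3, or 18.3, 16.6 and 21.3 RPKM. The mean was 18.7 ± 2.39 RPKM, above 71.9% of genes with a count. Ier2 (Entrez 15936), a nuclear protein induced by serum and growth factors, had 257, 193 and 1015 counts. Its levels were 13.6, 10.6 and 20.7 RPKM, with a mean of 15.0 ± 5.21 RPKM. Ier5 was above Ier2 in each library, but the ranges overlapped. Both genes were highest in replicate 3 and lowest in replicate 2.

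Of the Egr factors, Egr1 (Entrez 13653) was the only one above 1 RPKM. It had 97, 62 and 325 counts, or 2.54, 1.68 and 3.29 RPKM, with a mean of 2.50 ± 0.80 RPKM, above 41.2% of genes with a count. Egr1 was lower than Ier2 in every library with no overlap, 5.98-fold on the means. Egr3 (Entrez 13655), a related factor induced by receptor signals in lymphocytes, had 3, 7 and 20 counts, or 0.17, 0.41 and 0.44 RPKM. Egr2 (Entrez 13654), known for its part in hindbrain and myelin development and in lymphocyte tolerance, had 4, 4 and 14 counts, the lowest level of the 8 at 0.123 ± 0.021 RPKM. The 3 Egr genes thus spanned a wide range, and the counts of Egr2 and Egr3 came close to the floor of 3 counts used here as the limit of detection.

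Of the nuclear receptors, Nr4a1 (Entrez 15370; also called Nur77) led. It had 30, 36 and 150 counts, or 0.98, 1.21 and 1.88 RPKM, with a mean of 1.36 ± 0.47 RPKM. Replicate 3 was the highest and, unlike for Egr1 and the Ier genes, replicate 1 the lowest. Nr4a3 (Entrez 18124) had 10, 3 and 17 counts and Nr4a2 (Entrez 18227) had 13, 4 and 32. In RPKM these were 0.43, 0.13 and 0.28 for Nr4a3 and 0.31, 0.10 and 0.30 for Nr4a2, so both were lowest in replicate 2 and highest in replicate 1. Nr4a1 lay above both in every library with no overlap.

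In the order of levels, Ier2 over Egr1 and Nr4a1 over Egr3 were the only neighbours whose ranges over the libraries did not overlap, the latter 3.98-fold apart on the means. Egr1 exceeded Nr4a1 in all 3 libraries, 1.85-fold on the means, although the highest Nr4a1 value was above the lowest Egr1 value. Egr3, Nr4a3, Nr4a2 and Egr2 overlapped from neighbour to neighbour and kept their order in 2 of 3 libraries each. Over all 28 pairs of the 8 genes, 24 had 1 order in every library. Words of 31 bases shared with other genes made up at most 0.523% of the transcripts of any of the 8 genes, and no exon of theirs overlaps another gene in the GRCm38 annotation.

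Spread between the libraries was measured next. The filter on low counts, a minimum of 10 counts scaled to library size in every library, kept Ier5, Ier2, Egr1 and Nr4a1 and removed Egr2, Egr3, Nr4a2 and Nr4a3. Relative to the gene's own mean over the libraries, on the log2 CPM scale (counts scaled to library size), the shift in replicate 3 was 0.52 for Ier2, 0.51 for Nr4a1, 0.44 for Egr1 and 0.19 for Ier5. The Ier2, Nr4a1 and Egr1 shifts exceeded those of 98.4%, 98.3% and 97.5% of the 12147 genes tested, and the Ier5 shift exceeded 87.7%. In replicate 2 the shifts were -0.51 for Egr1, -0.44 for Ier2, -0.17 for Ier5 and -0.10 for Nr4a1. The medians of these 4 were -0.05, -0.31 and 0.48 in replicates 1, 2 and 3, against 0.0035, 0.0024 and -0.0018 for all genes tested. The replicate 3 median was 0.24 without replicate 2 and 0.39 without replicate 1, and the replicate 2 median -0.13 without replicate 3. The replicate 1 median was -0.24 without replicate 2 and 0.13 without replicate 3, a change of sign. With 1 library left out, the shifts in the other 2 are equal and opposite by construction, and the mean they refer to changes.

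**Figure D2:**
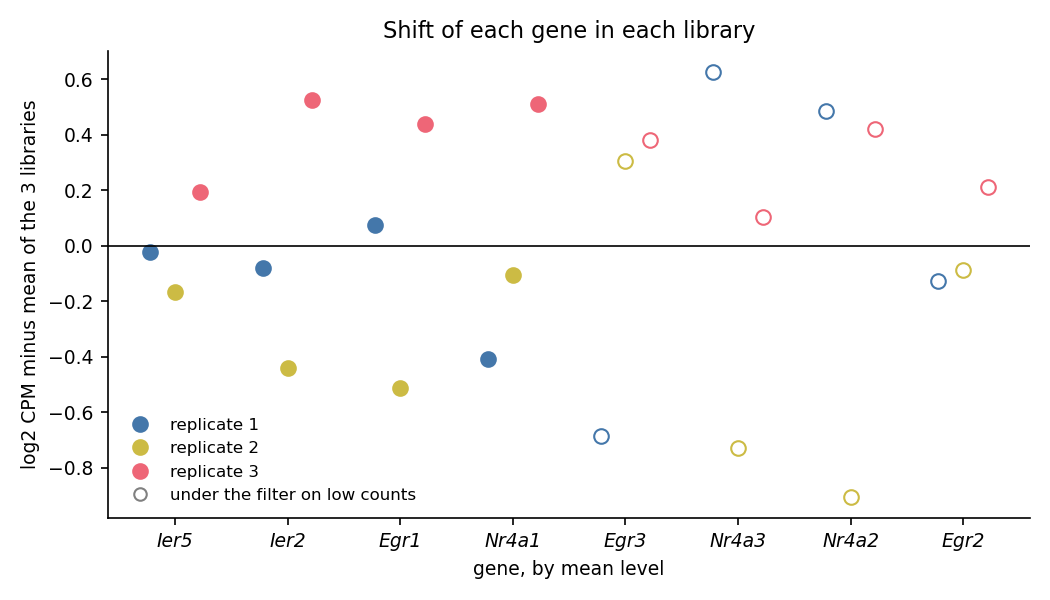
Shift of each of the 8 genes in each library, as log2 CPM minus the gene's mean over the 3 libraries; open points mark genes under the filter on low counts. Replicate 3 is the highest point for 6 of the 8 genes, among them the 4 tested, where 35.1% of all genes tested were highest in replicate 3. Nr4a3 and Nr4a2 are highest in replicate 1, and the order of open points rests on few counts.

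Against counting noise alone, the counts of Ier2 (adjusted p = 1.43e-20), Ier5 (5.29e-08), Egr1 (1.09e-05) and Nr4a1 (0.0020) differed between the 3 libraries (chi-square test against Poisson counts, Benjamini-Hochberg over all genes tested). That call was common, with 54.6% of genes tested passing. Without replicate 3 it was lost for Nr4a1 (adjusted p = 0.577) and Ier5 (0.170), and without replicate 2 for Egr1 (0.0716). Against genes of like abundance, in edgeR's quasi-likelihood fit with an intercept only, none of the 4 was more variable. Their adjusted p-values lay between 0.886 and 0.996, and Ier2 had an unadjusted p of 0.0145. In that test 0.0165% of genes passed, and 644 genes had an unadjusted p under 0.05.

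Pairs of libraries were then compared gene by gene with an exact binomial test, which weighs counting error only and so describes these libraries. Ier2 was 1.96-fold higher in replicate 3 than in replicate 2 (95% Clopper-Pearson interval 1.68 to 2.30, adjusted p = 8.40e-19) and 1.52-fold higher than in replicate 1 (1.33 to 1.76, 7.43e-09). Egr1 was 1.95-fold higher in replicate 3 than in replicate 2 (1.48 to 2.60, adjusted p = 1.92e-06), and its 1.29-fold ratio to replicate 1 did not pass (adjusted p = 0.0697). Nr4a1 was 1.93-fold higher in replicate 3 than in replicate 1 (1.30 to 2.96, adjusted p = 0.0030). Its ratio to replicate 2, 1.55 (1.07 to 2.30, adjusted p = 0.0385), was lost without the filter on low counts (0.0526), with replicate 3 thinned to the smallest depth (0.105) and with the base composition trend removed (0.0656). Ier5 was 1.29-fold higher in replicate 3 than in replicate 2 (1.18 to 1.40, adjusted p = 7.46e-08) and 1.16-fold higher than in replicate 1 (1.07 to 1.26, 0.0019), a call lost with replicate 3 thinned (0.111). Of all genes tested, 22.1% passed as higher in replicate 3 than in replicate 2, and 17.3% as higher than in replicate 1.

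Replicates 1 and 2 are of like depth and share a CASAVA version, but they differ in Xist and so in animal. Between them Egr1 was 1.51-fold (1.09 to 2.11, adjusted p = 0.0448) and Ier2 1.28-fold (1.06 to 1.56, 0.0393) higher in replicate 1, where 12.4% of genes passed. Both calls were lost without the filter on low counts (0.0625 and 0.0549) and with the base composition trend removed (0.0668 and 0.112). The log2 ratios stayed near their size, at 0.59 and 0.36 without the filter and 0.56 and 0.29 with the trend removed. Ier5 (ratio 1.11, adjusted p = 0.177) and Nr4a1 (ratio 0.804, 0.601) did not pass. For the 4 genes under the filter the intervals were wide, as the plot of ratios shows. Nr4a2 was the exception in its interval, at 2.98-fold higher in replicate 3 than in replicate 2 (1.06 to 11.6), but its adjusted p, over all genes with a count, was 0.103. The Egr3 ratio of replicate 3 to replicate 1, 2.57, had an interval from 0.763 to 13.5. Differences of that size were not detectable at these counts.

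**Figure D3:**
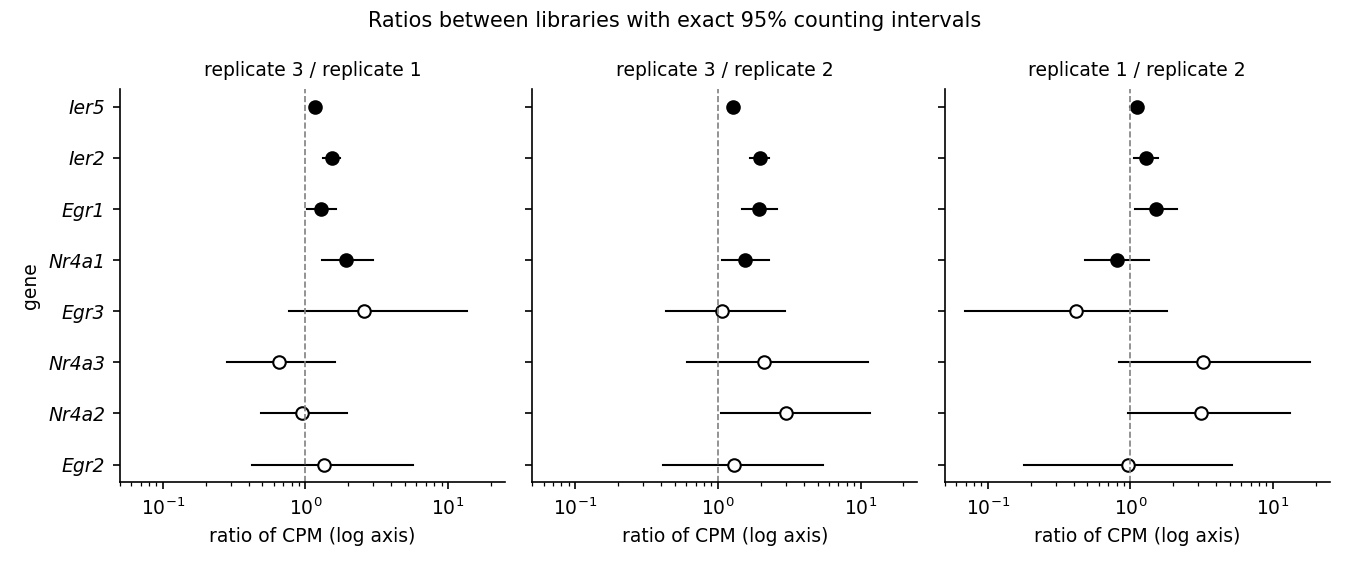
Ratio of CPM between each pair of libraries (log axis) for the 8 genes, with exact 95% intervals that cover counting error only; open points mark genes under the filter on low counts. Intervals of Ier5, Ier2, Egr1 and Nr4a1 lie above 1 in both panels with replicate 3, while those of Egr3, Nr4a3 and Egr2 cross 1 in all 3 panels.

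When the spread between libraries was taken into account, the difference of replicate 3 from the others did not pass for any of the 4 genes. In edgeR's quasi-likelihood test of the CASAVA 1.8.0 library against both 1.8.2 libraries, the log2 differences were 0.78 ± 0.30 (SE) for Nr4a1, 0.78 ± 0.19 for Ier2, 0.64 ± 0.29 for Egr1 and 0.29 ± 0.13 for Ier5. The adjusted p-values were 0.469, 0.313, 0.540 and 0.540. DESeq2 gave adjusted p-values between 0.660 and 0.999974 for these 4. Of all genes tested 0.0576% passed as higher and 0.0165% as lower, and 1170 genes had an unadjusted p under 0.05, Ier2 (0.0042) and Nr4a1 (0.0317) among them. With a single library on 1 side, software version, depth and the cells of replicate 3 cannot be told apart.

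Relatives of the 8 genes ranged from 0 to 4.47 RPKM on average. Egr4 had no counts in any library, and Wt1, a zinc finger factor with a related binding site, had none either. Ier5l, the closest relative of Ier5, stood at 4.21, 2.82 and 6.40 RPKM. Its order over the libraries was the same as that of Ier5 and Ier2. Ier3 went the other way in replicate 3, at 1.77, 2.22 and 1.65 RPKM, and its counts did not differ beyond counting noise (chi-square adjusted p = 0.506). Nab1 and Nab2, corepressors that bind Egr proteins, stood at 6.49 ± 0.056 and 1.21 ± 0.24 RPKM. The retinoid X receptors pair with Nr4a1 and Nr4a2, and of these Rxrb was at 45.2 ± 4.45 RPKM, Rxra at 1.22 ± 0.14 RPKM and Rxrg without counts.

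Other immediate early genes were measured on a list of 44, chosen with earlier results of these data known. Their median was 14.6 RPKM, and 32 of 44 reached 1 RPKM in every library. Btg2, an antiproliferative gene, led at 241 ± 13.2 RPKM, followed by Nfkbia, the NF-kappaB inhibitor, at 209 ± 9.40 RPKM, and the mRNA decay factor Zfp36 at 188 ± 37.4 RPKM. The phosphatase gene Dusp2 stood at 143 ± 33.9 RPKM. Egr1 and Nr4a1 stood below the AP-1 genes Jun (42.9 ± 23.2 RPKM) and Junb (34.8 ± 11.5 RPKM). Fos (2.31, 0.72 and 10.6 RPKM) and Arc (3.49 ± 1.30 RPKM) were nearer to them. Cyr61 and Ctgf had no counts.

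Of the 36 genes of that list that passed the filter, 26 were highest in replicate 3, against 35.1% of all genes tested, and 23 were also lowest in replicate 2, against 21.9%. The median shift in replicate 3 was 0.27. In the exact binomial test of replicate 3 against replicate 2, 26 of the 36 were higher and 6 lower, where 22.9% of all genes passed as lower. Between replicates 1 and 2, which differ in Xist and so in animal, 13 were higher in replicate 1 and 3 lower, against 12.4% and 13.1% of all genes tested. Fos had 60, 18 and 717 counts, the phosphatase gene Dusp1 181, 105 and 989, and Jun 1467, 889 and 7025. Their replicate 3 shifts of 1.99, 0.96 and 0.81 were above that of Ier2. Btg2 (-0.07), Nfkbia (-0.07), Per1 (-0.19) and Cd69 (-0.35), a surface activation marker, were below their own means in replicate 3. Ppp1r15a, a stress-induced phosphatase subunit, was the only gene of the list past edgeR's quasi-likelihood test of replicate 3 against the others, at a log2 difference of 1.36 ± 0.15 (adjusted p = 0.0449). Without the filter on low counts no gene passed that test, Ppp1r15a included.

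**Figure D4:**
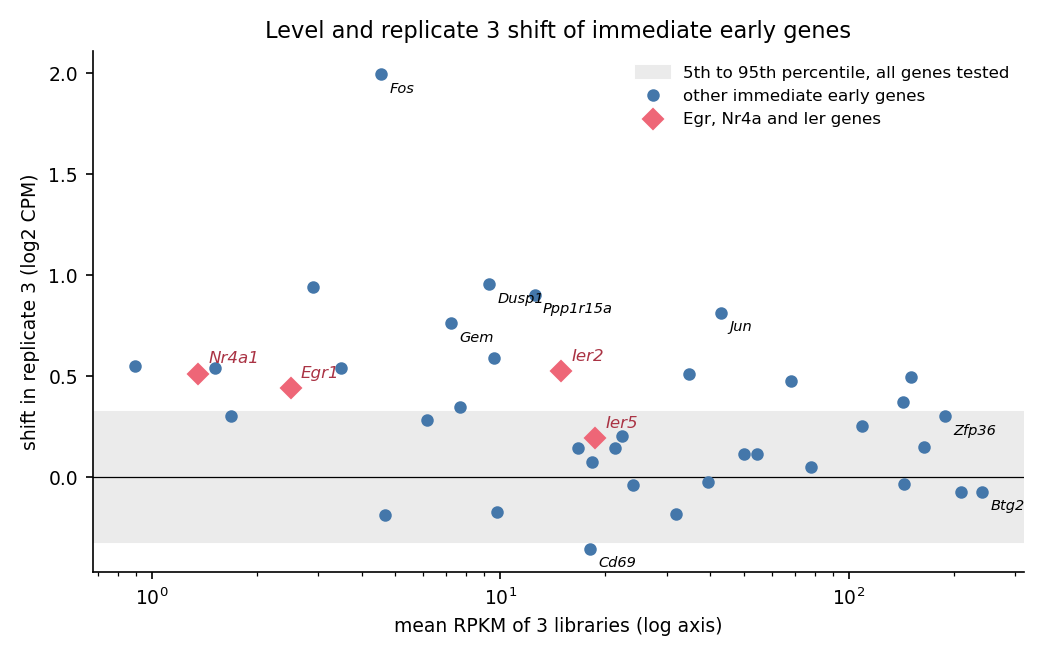
Mean RPKM (log axis) against the shift in replicate 3 for the immediate early genes that passed the filter on low counts; the grey band spans the 5th to 95th percentile of all genes tested, -0.32 to 0.32. Ier2, Nr4a1 and Egr1 lie above the band and Ier5 inside it, with Fos at 1.99 the highest point.

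Genes that carry signals to these promoters were described by arm, and no difference between lists was tested. Of 19 genes of the serum response factor arm and the kinase cascade that acts on it, all passed the filter and 8 were highest in replicate 3, near the 35.1% of all genes tested. Against replicate 2, 5 were higher and 5 lower, near the 22.1% and 22.9% of all genes. Srf itself, which binds the CArG box, stood at 22.4 ± 2.88 RPKM. Elk4, a partner of serum response factor, stood at 59.1 ± 5.91 RPKM. Of the CREB, MEF2 and calcium arm, 18 of 20 passed the filter and 10 of these were highest in replicate 3. Both highest in replicate 3 and lowest in replicate 2 were 9 of the 18, the order of Ier2, Ier5 and Egr1, which 21.9% of all genes tested had. Against replicate 2, 9 were higher and 3 lower, where the shares over all genes were 22.1% and 22.9%. Mef2d led at 180 ± 6.20 RPKM, and Creb1, which binds the cyclic AMP response element, stood at 36.6 ± 1.46 RPKM. Of 12 receptor-proximal genes, 1 was higher and 8 lower in replicate 3 than in replicate 2, beside the same 22.1% and 22.9%. Syk, the kinase recruited to the receptor, stood at 645, 630 and 594 RPKM, and the adaptor gene Blnk at 259 ± 29.5 RPKM. The receptor-proximal median was 126 RPKM, far above the levels of Egr1 and Nr4a1 in the same libraries.

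Other measures had the order of Ier2, Egr1 and Ier5, lowest in replicate 2 and highest in replicate 3, and their part in the shifts was not tested. Nr4a1 shared with them only the high replicate 3, and its counts, like those of Ier5, did not separate replicates 1 and 2. Of 12 heat shock genes 9 passed the filter, and all 9 were highest in replicate 3 and lowest in replicate 2, an order that 21.9% of all genes tested had. Against replicate 2, 8 of these were higher in replicate 3 and none lower, where 22.1% of all genes passed as higher and 22.9% as lower. Hspa8, a constitutive chaperone, stood at 116, 68.7 and 137 RPKM, and the cochaperone Dnajb1 at 38.2, 30.1 and 51.6 RPKM. Their replicate 3 shifts, 0.41 and 0.40, were above the median of 0.32 for the 9 genes. Hspe1 moved less, at 22.7, 20.8 and 24.6 RPKM, with a shift of 0.12. Its counts did not differ beyond counting noise (chi-square adjusted p = 0.169). The strongly heat-inducible Hspa1a and Hspa1b stood at 0.099 ± 0.047 and 1.17 ± 0.50 RPKM. Hspa1b had 34, 27 and 158 counts, with the largest replicate 3 shift of the 9 genes, 0.64. The rest of the list was under the filter. Bag3 had 2, 3 and 23 counts, Hspa1a had 2, 5 and 8, highest in replicate 2 for its depth, and Hspb1 had none. The share of reads from the ribosomal RNA gene Rn28s1 was also lowest in replicate 2 and highest in replicate 3, at 0.0257%, 0.0145% and 0.0467%.

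Markers of other cells were summed over whole lists. The 10 neutrophil markers summed to 1318, 1583 and 2336 RPKM in replicates 1, 2 and 3, with S100a9 at 774 ± 250.2 RPKM and none at 0. Most of that sum came from S100a9, at 568, 702 and 1052 RPKM, and S100a8, at 408, 481 and 749 RPKM. Of the 10, 7 were highest in replicate 3, against 35.1% of all genes tested. Elane and Mpo were highest in replicate 1, and Mmp8 in replicate 2. The 8 monocyte and macrophage markers summed to 189.8, 222.8 and 269.7 RPKM, with none at 0. Most of that sum was a single gene, Lyz2, at 155.7, 186.3 and 227.5 RPKM. Csf1r stood at 1.43, 1.81 and 2.09 RPKM. Of the 8, 7 were highest in replicate 3, where 35.1% of all genes tested were. Cd68 was lowest in replicate 2, at 7.51, 5.22 and 6.35 RPKM. The neutrophil sum and the monocyte and macrophage sum were lowest in replicate 1, the order of Nr4a1, whereas Ier2, Ier5 and Egr1 were lowest in replicate 2. The counts of Nr4a1 and Ier5 did not separate replicates 1 and 2 (exact binomial test, adjusted p = 0.601 and 0.177). The part of these cells in the shifts was not tested. T and NK markers summed to between 4.59 and 5.90 RPKM, erythroid markers to between 7.72 and 8.90 RPKM, mature B and plasma cell markers to 145.3, 150.8 and 160.1 RPKM in replicates 1, 2 and 3, and stem and progenitor markers to between 2.99 and 3.99 RPKM with Mecom at 0. In bulk RNA, more cells of another kind and more RNA per cell cannot be told apart.

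Base composition moved with the library too. The longest transcripts of Ier2, Egr1, Nr4a1 and Ier5 had 60.9%, 57.3%, 57.0% and 52.3% GC, above 97.8%, 89.2%, 87.8% and 64.6% of the genes tested. In the most GC-rich of 20 bins the median shift of all genes was 0.068 in replicate 3 and -0.071 in replicate 2, and in the most GC-poor bin it was -0.045 and 0.072. With each library's trend removed, an alternative added after seeing the data, the replicate 3 shifts became 0.45 for Ier2, 0.49 for Nr4a1, 0.41 for Egr1 and 0.18 for Ier5. The direction was kept for each of these 4, and most of the size.

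**Figure D5:**
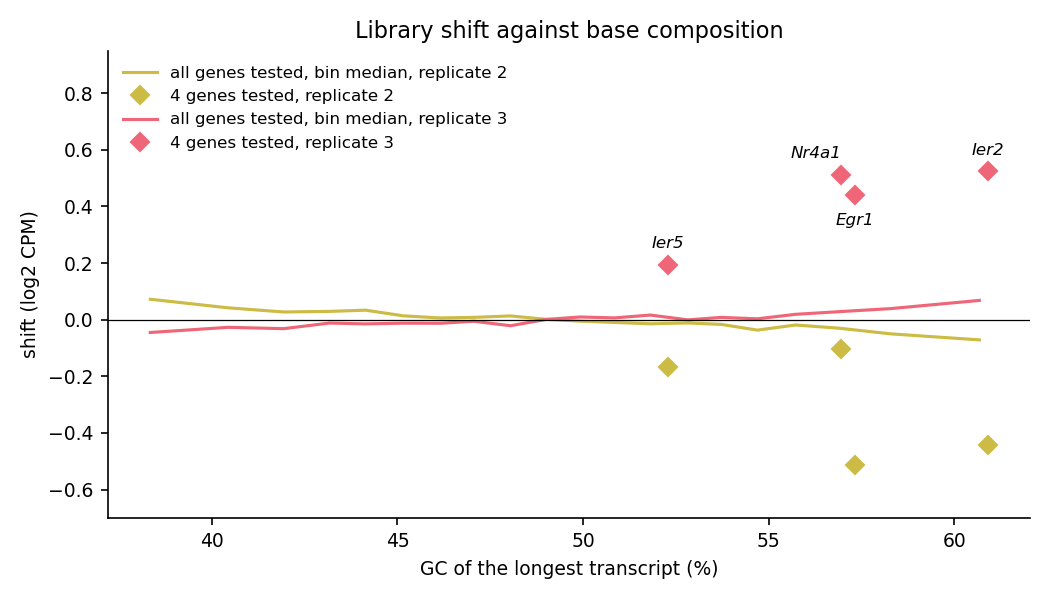
Shift in replicates 2 and 3 against the GC content of the longest transcript. Lines give the median of all tested genes in 20 bins and diamonds the 4 genes tested, which lie farther from 0 than the lines in both libraries.

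The genes whose profile over the 3 libraries was nearest to the mean of the 4 tested genes (-0.11, -0.31 and 0.42) were sought among 12264 others with at least 10 counts in every library. By Euclidean distance of the shifts, the nearest 6 were the ribosomal protein pseudogene Rps15a-ps2 (distance 0.013), D330023K18Rik (0.021), the exonuclease gene Exo1 (0.027), Ptpdc1 (0.032), Tbkbp1 (0.037) and Dmxl2 (0.039). None of the 6 is on the immediate early list. Exo1, for example, had 297, 256 and 1113 counts, or 4.34, 3.88 and 6.28 RPKM. Likeness over 3 libraries says nothing of function.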

How the data were processed

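RNA from sorted pre-B cells of 3 samples was sequenced. Each deposited table gives unnormalised counts for Entrez genes, and their lengths, summarised with featureCounts on mm9, per the submitters' processing notes. For the aligner, annotation and strand setting the sources used here give nothing. Symbols came from a RefSeq table of GRCm38.p6, which matched 24176 of 26286 identifiers.

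The tests ran in edgeR 4.0.16 (R 4.3.3), with DESeq2 1.42.0 as an alternative, on TMM-scaled library sizes (factors 1.0003, 0.997 and 1.003). RPKM was computed from the scaled sizes and the deposited lengths. filterByExpr (minimum count 10, total 15) kept 12147 genes. Shifts used a prior count of 2. Tests were fitted over all 12147 genes with a threshold of 0.05 on Benjamini-Hochberg adjusted p-values, and were tried on simulated data. Transcript GC was known for 88.5% of the genes tested. Counting error alone sets the intervals and the 3-count floor. Totals of 12418054, 12021576 and 32086649 counts make replicate 3 the most precise. The members, lists and naming rule (all 8 members, the highest of each list, and the nearest 6 profiles) were chosen with earlier results of these data known. The highest gene of 1 list is not reported here. Figures were drawn with matplotlib 3.10.9.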

Additional observations from a re-analysis of the deposited data

How the results depend on the processing

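Of 68 recomputed summary values 55 kept their direction and stayed within range of the value reported, as did 179 of 192 values for single genes. That range was broad and differed by kind of value. A replicate 1 median shift of -0.24 without replicate 2, against -0.05 with all libraries, counted as within it. The summary values that changed direction or left the range follow, and the cause was not tested. The count of genes past edgeR's test of replicate 3 against the others, 9, became 23 without scaling beyond the total, 14 with replicate 3 thinned, 60 with the GC trend removed and 36 with DESeq2 (21 higher and 15 lower, against 7 and 2). With all genes with a count it became 0 in edgeR (1200 at an unadjusted p under 0.05). Genes more variable than others of like abundance, 2, became 46 with all genes with a count and 0 in edgeR's robust fit (604 at an unadjusted p under 0.05). Leaving out each replicate gave 2 to 44, with 44 without replicate 2 and 8 without replicate 1. Genes past counting noise, 6627, ranged from 3145 without replicate 3 to 5590 without replicate 1, with 4256 without replicate 2.

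The median shift of the 4 tested genes in replicate 3, 0.48, ranged from 0.24 (without replicate 2) to 0.39 (without replicate 1). That of replicate 1, -0.05, ranged from -0.24 without replicate 2 to 0.13 without replicate 3, where it changed sign because the mean it is measured against then omits that library. That of replicate 2, -0.31, ranged from -0.39 to -0.13. These values form equal and opposite pairs by construction, so they are not separate results for each replicate. Without replicates 1 and 2 in turn the comparison of replicate 3 has 1 library a side and no test, and gave log2 differences of 0.97 and 0.37 for Egr1 and 0.97 and 0.61 for Ier2; without replicate 3 it could not be made. No paired analysis was possible because there is a single group. Depth limits Egr2, Egr3, Nr4a2 and Nr4a3, at 3 to 32 counts a library.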

Other observations

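Some immediate early genes outside the filter on low counts, named after their values were seen, were concentrated in replicate 3. Fosb, a partner of Jun, had 4, 4 and 182 counts in replicates 1, 2 and 3, or 0.32, 0.33 and 5.66 CPM, which allows for the greater depth of replicate 3. Ptgs2, the inducible cyclooxygenase, had 2, 1 and 25 counts, or 0.16, 0.083 and 0.78 CPM. Maff was highest there too, at 0.081, 0.50 and 0.68 CPM. Others of the list outside the filter were not. Fosl1 was lowest in replicate 3 (0.56, 0.42 and 0.25 CPM). Rgs1 was highest in replicate 1 (0.48, 0.17 and 0.25 CPM) and Atf3 in replicate 2 (0.081, 0.33 and 0.25 CPM). Klf4, which passed the filter, had 37, 112 and 458 counts, with replicate 1 the lowest. Nr4a1 was lowest there too, but its counts did not separate replicates 1 and 2. Gem, a small GTPase gene, was low in replicate 2 alone, at 9.35, 2.22 and 10.1 RPKM.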
